A study of Mus musculus with 41 samples.

Results

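The type I interferon antiviral genes are 38 genes that cells switch on when interferon alpha or beta binds their surface, and whose proteins detect, block or destroy viruses. They were chosen by gene symbol from a named list, with 1 probe set per gene, and were described here in 41 melanomas of the iBIP mouse. Of the 38 genes, 36 had a probe set that named them alone, among 18194 such genes on the array. Isg15 and Ifi44 are not analysed here. All 36 passed the filter on low values, as did 14319 genes in all. Levels are log2 intensities of Affymetrix probe sets and differences are log2 fold changes, given ± the standard error (SE). A gene was called when the adjusted p of one limma fit over all genes tested was under 0.05.

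In iBIP mice a human BRAF oncogene under the control of doxycycline drives melanoma. The labels give the strain name alone and list no alleles. Doxycycline was taken out of the drinking water, which turns the transgene off, and tumours were collected 1, 2, 3, 6, 9, 16, 29 or 63 to 163 days later. Day 0, still on the drug, had 4 tumours, day 1 had 7, day 2 had 5, day 3 had 6, day 6 had 4, day 9 had 3, and days 16 and 29 had 1 each. The late tumours were 10, of which day 63 gave 3, days 77 and 121 gave 2 each, and days 90, 136 and 163 gave 1 each. Each sample was a piece of whole tumour with the skin trimmed off, so tumour cells, immune cells and stroma were measured together, and fewer cells of a type cannot be told apart from less RNA per cell. The labels do not say whether any mouse gave more than 1 tumour, nor whether the late tumours are remnants or regrowth, and p-values measure only the spread between these tumours. Of the melanocyte lineage genes, Mitf, Sox10, Pax3 and Pmel lay above the filter level in all 41 arrays, whereas Tyr did so in 1, Mlana in 9, Tyrp1 in 17 and Dct in 33.

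Type I interferons bind the receptor pair Ifnar1 and Ifnar2, whose kinases Jak1 and Tyk2 phosphorylate Stat2. Stat2 and Irf9 are parts of the factor ISGF3, which enters the nucleus and binds interferon-stimulated response elements in the promoters of antiviral genes. Irf7, itself a target, amplifies the response, and Usp18 dampens it at the receptor. Interferon gamma, made by T and NK cells, signals through another receptor, and many genes respond to both kinds of interferon.

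Letters like those of the response element stand in the promoters of several of these genes, and 5 examples of genes measured here are shown, chosen after the values were seen. The pattern searched was GAAANNGAAA, on both strands, from 250 bases before to 50 after each gene's start, in RefSeq promoters of mouse build GRCm38.p6. Of the 38 genes, 27 had a promoter in the RefSeq table and 11 of these (40.7%) held at least 1 match, against 3.99% of all 27025 genes in the table. Capitals mark the matches, each sequence runs 5′ to 3′ on the gene's own strand, and a match on the opposite strand reads as runs of T followed by C. The Ifit1 stretch lies at chr19:34640745-34640834 on the plus strand and its first match starts 104 bases before the gene. The Ifit3 stretch lies at chr19:34583333-34583422 on the plus strand, with its first match 156 bases before the start that the promoter table gives, which lies inside the annotated gene. The Rsad2 stretch lies at chr12:26456523-26456612 on the minus strand, with 1 match that starts 120 bases before the gene. The Ddx60 stretch lies at chr8:61927994-61928083 on the plus strand, with a pair of matches. The first starts 53 bases before the start that the promoter table gives, which again lies inside the annotated gene. The Bst2 stretch lies at chr8:71537553-71537642 on the minus strand, where overlapping matches share bases and the first starts 130 bases before the gene. A match is a run of letters and not a measured binding site.
Ifit1: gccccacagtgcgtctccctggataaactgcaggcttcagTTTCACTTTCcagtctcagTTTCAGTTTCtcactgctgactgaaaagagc
Ifit3: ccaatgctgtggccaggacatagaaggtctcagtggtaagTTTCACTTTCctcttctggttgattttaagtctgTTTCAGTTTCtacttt
Rsad2: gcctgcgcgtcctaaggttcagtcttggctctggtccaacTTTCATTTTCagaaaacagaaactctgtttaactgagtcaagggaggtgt
Ddx60: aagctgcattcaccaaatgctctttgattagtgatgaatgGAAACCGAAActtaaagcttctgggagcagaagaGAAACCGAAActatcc
Bst2: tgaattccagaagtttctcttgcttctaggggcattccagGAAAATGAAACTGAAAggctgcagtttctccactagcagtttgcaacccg

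Some properties of the arrays followed the groups. Spike-in controls put the arrays into 3 sets. Every tumour from days 2, 3 and 6, with 1 from day 1, fell in set 1. Set 2 held 6 tumours from day 1 with 8 late ones, and set 3 held days 0, 9, 16 and 29 with 2 late ones. Day 0 thus shared no set with days 1, 2, 3 and 6. A fit with spike-in set as a block links set 1 to the others only through its 1 tumour of day 1, replicate 4. Sets 2 and 3 are linked only through the late tumours. Block values of days 2, 3 and 6 against groups outside set 1 therefore rest on that tumour of day 1. They cannot tell an effect of the set apart from that tumour's own levels. The Gapdh gap, meaning how far the 3′ control probe set of Gapdh lies above the 5′ one in log2 units, is larger in degraded RNA. It averaged 0.45 ± 0.12 at day 0 (SD, n = 4), 1.22 ± 0.99 at day 9 (n = 3) and 2.62 ± 1.38 in the late tumours (n = 10). It was over 2 in replicate 3 of day 9 and in 8 late tumours. How many arrays a group has sets how precise its values are.

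The antiviral genes were higher in the tumours of days 1 to 9 than in most tumours of day 0 and were low again in the late tumours. The mean log2 intensity over the 36 genes was 7.59, 9.56, 7.87 and 7.76 in the 4 tumours of day 0. At day 1 it ran between 8.49 and 9.57 with a median of 9.01, and at day 2 between 8.68 and 9.36. It reached 9.04 to 10.25 at day 3 with a median of 9.62, and 8.87 to 9.99 at day 6. The 3 tumours of day 9 had 9.25, 9.80 and 9.98, and the single tumour of day 16 had 9.59. The single tumour of day 29 had 7.70, and the 10 late tumours lay between 7.72 and 8.30 with a median of 8.04. Replicate 2 of day 0 stood inside the range of days 1 to 9, while the other three tumours of day 0 stood below all tumours of days 1 to 9. The late tumours were the most alike, with an SD of 0.19 (n = 10) against 0.92 at day 0 (n = 4).

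**Figure D1:**
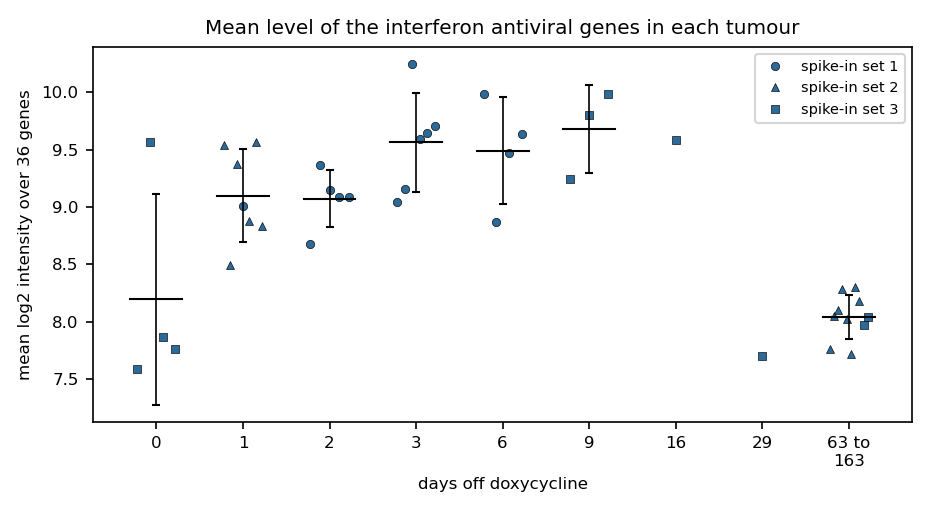
Mean log2 intensity over the 36 antiviral genes (vertical axis) in each of the 41 tumours by days off doxycycline (horizontal axis), with 1 symbol per tumour, shaped by spike-in set, and bars for the group mean ± SD. Day 0 spans 7.59 to 9.56 because of its replicate 2, and all 10 late tumours lie between 7.72 and 8.30.

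At day 1 some of the antiviral genes were called higher than at day 0. Limma called 18 of 36 higher and 0 lower, against 7.57% of all genes called higher and 6.25% lower, and the median difference was 0.94, against 0.00 over all genes. The largest called differences were those of Zbp1 (1.54 ± 0.38 SE, adjusted p = 0.00628), a sensor of unusual nucleic acid helices, Oasl2 (1.48 ± 0.42, 0.0174), an RNA-binding relative of the oligoadenylate synthetases, Trim30a (1.41 ± 0.31, 0.00257), a ubiquitin ligase family gene, and Lgals3bp (1.38 ± 0.30, 0.00271), a secreted glycoprotein. Ifih1, the RNA sensor MDA5, rose by 0.99 ± 0.33 (adjusted p = 0.0398). Ifit1 (1.25 ± 0.47, adjusted p = 0.0726), Mx1 (1.21 ± 0.52, 0.115), Oas2 (0.82 ± 0.33, 0.092), Rsad2 (0.70 ± 0.56, 0.449) and Eif2ak2 (0.21 ± 0.22, 0.585) were not called. All 5 genes of the PARP and ubiquitin ligase group and all 7 of the group of other interferon-induced genes were called, against 1 of 9 RNA-binding and translation-blocking effectors. The medians of the 6 roles lay between 0.70 and 1.14, and a difference between roles was not tested. The count leant on the tumours of day 0: it was 4, 8 or 7 without replicate 1, 3 or 4 and 31 without replicate 2. Trim30a and Lgals3bp stayed called without any 1 tumour, whereas Zbp1 lost its call without day 0 replicate 1, Oasl2 without replicate 1, 3 or 4, and Ifih1 without any of those or day 1 replicate 1, 3, 6 or 7. With spike-in set as a block 5 were called, Trim30a and Lgals3bp not among them, at a median of 0.99, and with only the compared groups in the fit also 5. How many of all genes were called in these other fits is not given here, for this or the later comparisons.

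Day 2 resembled day 1 in size. Limma called 14 of 36 higher and 0 lower, against 6.74% of all genes called higher and 8.35% lower, at a median of 0.95. Ddx60, a helicase that assists RNA sensing, rose by 1.66 ± 0.43 (SE, adjusted p = 0.00973), and Samhd1, which depletes the nucleotides that viral DNA synthesis needs, rose by 1.45 ± 0.27 (0.000592). Zbp1 rose by 1.43 ± 0.41 (0.0156), Trim30a by 1.40 ± 0.33 (0.00447) and Ifih1 by 1.10 ± 0.35 (0.0317). Mx1 (1.42 ± 0.56, adjusted p = 0.0805), Rsad2 (1.14 ± 0.60, 0.196), Ifit1 (0.93 ± 0.51, 0.218), Eif2ak2 (0.66 ± 0.24, 0.0528) and Oas2 (0.45 ± 0.35, 0.405) were not called. The count was 4, 6 or 6 without day 0 replicate 1, 3 or 4, 31 without replicate 2 of day 0, and leaving out day 2 replicate 5 gave 7. Samhd1 and Trim30a stayed called without any 1 tumour, and Ddx60 (day 0 replicate 1 or 4), Zbp1 (day 0 replicate 1 or 3) and Ifih1 (day 0 replicate 1, 3 or 4, day 2 replicate 2, 3 or 5) did not. With spike-in set as a block 0 were called, at a median of 0.88, with Ddx60 at 0.34, Zbp1 at 2.37 and Samhd1 at 2.20, and 3 were called with only the compared groups in the fit.

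At day 3 nearly the whole group was higher than at day 0. Limma called 33 of 36 higher and 0 lower, against 9.74% of all genes called higher and 11.6% lower, and the median difference was 1.41, against -0.02 over all genes. Mx1, a GTPase that traps viral nucleocapsids, rose by 2.50 ± 0.54 (SE, adjusted p = 0.00131), Ddx60 by 2.42 ± 0.42 (0.000156), Ifit3, a partner of Ifit1, by 2.26 ± 0.55 (0.00369) and Trim30a by 1.84 ± 0.32 (0.000155). Rsad2 rose by 1.76 ± 0.58 (0.0271), Ifit1 by 1.63 ± 0.49 (0.0165), Ifih1 by 1.56 ± 0.34 (0.00143), Oas2 by 1.12 ± 0.34 (0.0173) and Eif2ak2 by 1.06 ± 0.23 (0.0013). The genes not called were Oasl1 (0.93 ± 0.39, adjusted p = 0.0811), Adar (0.24 ± 0.16, 0.302) and Trim25 (-0.05 ± 0.18, 0.877). Samhd1 was the only gene whose tumours of day 3 all lay above all tumours of day 0, against 7.86% of all genes. The calls of Ifit1 (day 0 replicate 1 or 4), Oas2 (day 0 replicate 3 or 4) and Rsad2 (day 0 replicate 1, 3 or 4, day 3 replicate 3) ended without 1 tumour. With spike-in set as a block 1 was called, at a median of 1.42, and Ddx60 then stood at 1.10, Rsad2 at 0.73 and Eif2ak2 at -0.019.

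Day 6 had 30 of 36 called higher and 0 lower, against 5.74% of all genes called higher and 6.46% lower, at a median of 1.34. Mx1 rose by 2.24 ± 0.59 (SE, adjusted p = 0.011), Ddx60 by 2.14 ± 0.46 (0.00235), Ifit3 by 1.99 ± 0.60 (0.0253) and Rtp4, a chaperone of receptors that interferon induces, by 1.72 ± 0.42 (0.00671). Ifit1 rose by 1.64 ± 0.54 (0.0383), Ifih1 by 1.64 ± 0.37 (0.00376) and Eif2ak2 by 1.04 ± 0.25 (0.00552), and Rsad2 (1.73 ± 0.63, 0.065) and Oas2 (1.08 ± 0.37, 0.0527) were not called. The groups did not overlap in 3 genes, Trim30a, Eif2ak2 and Samhd1, against 10.5% of all genes. The count was 13, 19 or 15 without day 0 replicate 1, 3 or 4 and 34 without replicate 2 of that day. Leaving out day 6 replicate 1 gave 13, and replicate 4 gave 18. The calls of Ifit3 (day 0 replicate 1 or 4, day 6 replicate 1, 3 or 4), Ifit1 (day 0 replicate 1, 3 or 4, day 6 replicate 1, 3 or 4) and Mx1 (day 0 replicate 4, day 6 replicate 1) ended without 1 tumour. With spike-in set as a block 0 were called, at a median of 1.38 with Ddx60 at 0.82, Ifit3 at 1.31 and Eif2ak2 at -0.033, and 4 were called with only the compared groups in the fit.

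At day 9 limma called 24 of 36 higher and 0 lower, against 2.65% of all genes called higher and 1.91% lower, at a median of 1.40. The Ifit pair led, Ifit3 with 2.85 ± 0.65 (SE, adjusted p = 0.0109) and Ifit1 with 2.58 ± 0.58 (0.00994), followed by Mx1 with 2.35 ± 0.63 (0.0267) and Oasl2 with 2.11 ± 0.51 (0.0147). Ifih1 rose by 1.70 ± 0.40 (0.0131), and Rsad2 (1.90 ± 0.68, 0.0973), Oas2 (1.24 ± 0.40, 0.0642) and Eif2ak2 (0.51 ± 0.27, 0.263) were not called. In 7 genes (Ifit3, Xaf1, Parp9, Parp14, Herc6, Samhd1 and Adar) all 3 tumours of day 9 lay above all 4 of day 0, against 9.25% of all genes. The count rested on few tumours: it was 1 without day 9 replicate 3, the one with a Gapdh gap of 2.34, and 9 or 8 without day 0 replicate 1 or 4. Each gene just named as risen lost its call when day 9 replicate 3 was left out, and also when day 0 replicate 4 was, and Mx1 lost it without replicate 2 of day 9 too. Days 0 and 9 lie in the same spike-in set, where a fit of that set alone called 0 at the same median of 1.40, as did a fit of the compared groups alone, while the fit with the block called 25.

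Days 3 and 6, as the mean of their group means, were set against day 2, all in spike-in set 1. Of the 36 differences 34 were above 0, with a median of 0.48, against 0.00 over all genes. Limma called 0 of 36 and 0 of all 14319 genes (0%), and at an unadjusted p under 0.05 there were 7 antiviral genes and 794 genes in all. Mx1 differed by 0.95 ± 0.46 (SE, adjusted p = 0.891), Ifit1 by 0.71 ± 0.42 (0.94), Oas2 by 0.65 ± 0.29 (0.868), Rsad2 by 0.60 ± 0.49 (0.981), Ifih1 by 0.50 ± 0.29 (0.94) and Eif2ak2 by 0.39 ± 0.19 (0.891). A difference of days 3 and 6 from day 2 was not detectable with these tumours, and day 9 was not set against day 2.

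The late tumours had antiviral levels near those of day 0. Against day 0 limma called 1 of 36 higher, against 26.3% of all genes, and 3 lower, against 20.1%, at a median of -0.17. Nmi, which partners Ifi35, was the gene called higher (0.77 ± 0.25 SE, adjusted p = 0.0123). Oasl1, which restrains translation of Irf7, fell by 1.21 ± 0.35 (0.00553), Lgals3bp fell by 1.20 ± 0.29 (0.000996) and Trim25, a ubiquitin ligase that activates the sensor RIG-I, fell by 0.57 ± 0.17 (0.00531). Oasl1 and Lgals3bp lay below all tumours of day 0 in all 10 late tumours, against 7.67% of all genes. The differences of Rsad2 (-0.69 ± 0.53, adjusted p = 0.285), Oas2 (-0.51 ± 0.31, 0.175), Mx1 (-0.45 ± 0.49, 0.462), Ifit1 (-0.19 ± 0.45, 0.756), Eif2ak2 (-0.15 ± 0.21, 0.562) and Ifih1 (-0.08 ± 0.31, 0.857) were not called. Without day 0 replicate 2 there were 11 called, 9 of them higher, at a median of 0.25, and Oasl1 was not among them, while Nmi lost its call without day 0 replicate 1. With spike-in set as a block Nmi stood at 0.39 and Trim25 at -0.34 and neither was called, nor was Oasl1, and within set 3, which held 2 late tumours, 0 were called.

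Against days 6 and 9, whose group means were averaged, the late tumours were lower in all but 1 of the antiviral genes. Limma called 35 of 36 lower and 0 higher, against 13.8% of all genes called lower and 17.8% higher, at a median of -1.54, against 0.04 over all genes. The largest falls were those of Mx1 (-2.75 ± 0.41 SE, adjusted p = 1.29e-05), Oasl2 (-2.59 ± 0.33, 1.99e-06), Rsad2 (-2.51 ± 0.44, 9.21e-05) and Lgals3bp (-2.48 ± 0.24, 2.95e-08). Ifit1 (-2.30 ± 0.38, 3.7e-05), Ifih1 (-1.75 ± 0.26, 1.21e-05), Oas2 (-1.67 ± 0.26, 2.07e-05) and Eif2ak2 (-0.93 ± 0.17, 0.000175) fell too. Nmi, at -0.22 ± 0.21 (adjusted p = 0.453), was the gene not called. In 24 genes all 10 late tumours lay below all 7 tumours of days 6 and 9, against 0.999% of all genes. The count stayed between 34 and 35 without any 1 tumour, at 27 with spike-in set as a block, where Rsad2 stood at -1.65 and lost its call, and at 30 with the Gapdh gap as a covariate. Without the tumours whose Gapdh gap exceeded 2, which leaves 2 late tumours, 24 were called, and Ifit1 and Eif2ak2 were not among them.

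The late tumours were also lower than those of day 1, with which they share spike-in set 2 in part (8 late tumours and 6 of day 1). Limma called 31 of 36 lower and 0 higher, against 22.8% of all genes called lower and 28.9% higher, at a median of -0.97. The largest falls were those of Lgals3bp (-2.58 ± 0.24 SE, adjusted p = 2.83e-09), Oasl2 (-2.19 ± 0.33, 2.77e-06), Oasl1 (-1.87 ± 0.29, 4.73e-06) and Zbp1 (-1.84 ± 0.30, 7.45e-06). Mx1 (-1.67 ± 0.41, 0.00103), Ifit1 (-1.44 ± 0.37, 0.00178), Rsad2 (-1.39 ± 0.44, 0.00869), Oas2 (-1.33 ± 0.26, 7.91e-05) and Ifih1 (-1.07 ± 0.26, 0.000905) fell too. In 10 genes the groups did not overlap, against 3.72% of all genes. Ifit3 (-0.80 ± 0.42, adjusted p = 0.107), Ddx60 (-0.74 ± 0.32, 0.0503), Eif2ak2 (-0.36 ± 0.17, 0.0781), Ifit2 (-0.18 ± 0.31, 0.646) and Nmi (0.00 ± 0.21, 0.997) were not called. Within set 2 alone 31 were again called, at a median of -1.03. Without the tumours whose Gapdh gap exceeded 2 there were 13, and Zbp1, Ifit1, Mx1 and Rsad2 were not among them. The comparisons against day 0 share its 4 tumours, and those of the late tumours share the same 10.

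**Figure D2:**
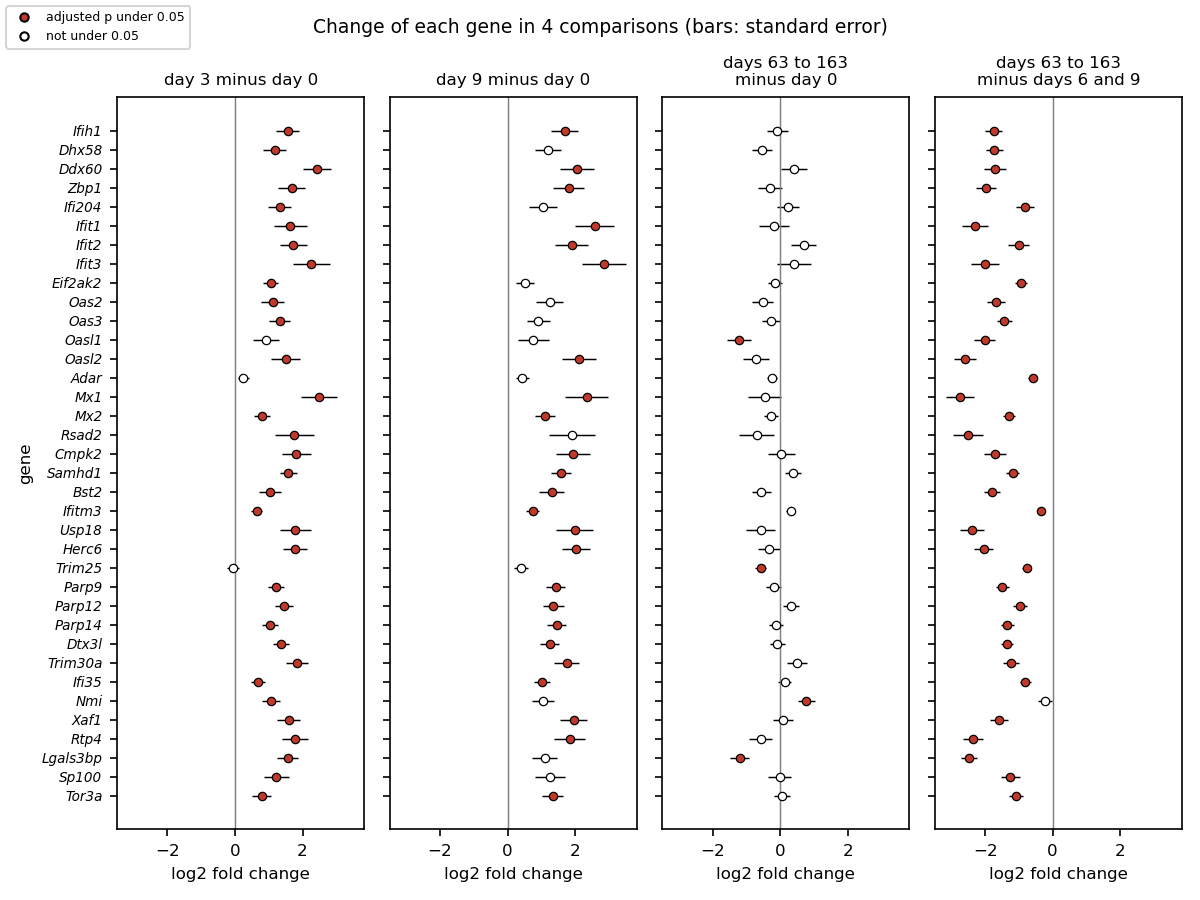
Log2 fold change (horizontal axis) of each of the 36 antiviral genes (vertical axis, ordered by role) in 4 comparisons, 1 per panel. Points are limma estimates, bars are ± 1 standard error and filled points have an adjusted p under 0.05, which 33, 24, 4 and 35 genes do from left to right.

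Among the sensors of foreign RNA and DNA, Ifih1 had 7.76, 10.33, 8.14 and 7.93 at day 0, between 9.02 and 10.06 at day 1 with a median of 9.44, and 9.70, 10.46 and 10.57 at day 9. The 10 late tumours ran between 7.82 and 8.94, with a median of 8.53, below all tumours of days 1 to 9. No share over all genes was computed for that. Replicate 2 of day 0 was within the range of days 3 to 9. Ddx60 had 5.80, 8.62, 6.73 and 5.87 at day 0, then 8.57 to 9.75 at day 3 (median 9.15) and 6.44 to 7.91 in the late tumours (median 7.03). Dhx58, the regulator LGP2, Zbp1 and Ifi204, a DNA sensor, completed the group, which had 5 of 5 called higher at day 3 and 5 of 5 called lower in the late tumours against days 6 and 9.

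The RNA-binding and translation-blocking effectors bind viral RNA or stop protein synthesis in infected cells. Ifit1, which binds RNA lacking the host cap, had 7.47, 10.93, 8.66 and 7.49 at day 0, 11.09, 9.46, 10.02 and 10.55 at day 6, and 10.67, 10.89 and 12.09 at day 9. Its late tumours ran between 7.74 and 9.10 with a median of 8.50, below all tumours of days 6 and 9. Ifit3 had 7.85, 11.75, 9.90 and 8.20 at day 0, 12.17, 11.94 and 12.71 at day 9 and 8.91 to 10.52 in the late tumours (median 9.83). Its tumours of day 9 lay above all of day 0, and the late tumours overlapped day 0.

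Oas2 and Oas3 make the short oligoadenylates that activate an RNase, and Oasl1 and Oasl2 are their relatives. Oas2 had 8.26, 9.34, 7.54 and 8.08 at day 0, 8.83, 9.79 and 10.02 at day 9 and 7.46 to 8.16 in the late tumours (median 7.71). Oasl2 had 7.60, 9.90, 7.33 and 7.34 at day 0, 9.49, 10.25 and 10.74 at day 9 and 6.01 to 8.23 in the late tumours (median 7.45). Oasl1 had 7.05, 8.99, 6.74 and 6.97 at day 0 and 6.04 to 6.41 in the late tumours (median 6.27). All late tumours lay below all tumours of days 0 to 9, and the share of all genes that do so was not computed. Of the 9 effectors 7 were called higher at day 3, 4 at day 9 and 9 lower in the late tumours against days 6 and 9.

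Eif2ak2, the kinase PKR that halts translation on sensing double-stranded RNA, had 6.34, 7.61, 7.03 and 6.52 at day 0. It ran between 7.55 and 8.33 at day 3 (median 7.94), had 6.97, 7.59 and 7.60 at day 9 and 5.83 to 7.27 in the late tumours (median 6.77). It was called at days 3 and 6 and not at day 1, 2 or 9. Adar, which edits adenosines in double-stranded RNA, had means between 8.58 in the late tumours and 9.27 at day 9 among the groups of 3 or more tumours, and was called in neither direction against day 0. These values are of its brightest probe set, and another Adar probe set differed more, by 0.91 at day 3 against day 0 and by -1.65 in the late tumours against days 6 and 9, where the brightest gave 0.24 and -0.59.

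The third group acts on virus entry, replication and release. Mx1 had 6.21, 9.09, 6.66 and 5.23 at day 0, 10.14, 7.77, 9.10 and 9.13 at day 6 and 8.57, 9.39 and 9.47 at day 9. Its late tumours lay between 5.96 and 6.76 (median 6.39), a range that holds replicate 3 and replicate 1 of day 0. Rsad2, viperin, which makes a chain-terminating nucleotide, had 8.12, 11.07, 8.11 and 7.34 at day 0 and 10.04, 10.95 and 10.68 at day 9. Its late tumours ran between 7.10 and 8.57 (median 8.02), and day 0 replicate 2 exceeded all tumours of day 9.

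Samhd1 had 8.99, 10.21, 8.61 and 9.28 at day 0, 10.65 to 11.10 at day 3 (median 10.84) and 9.47 to 10.01 in the late tumours (median 9.63). It was called higher in every comparison of days 1 to 9 with day 0, and its groups did not overlap at days 3, 6 and 9. Ifitm3, which blocks fusion of entering viruses, had the smallest differences of this group in both of the following comparisons, 0.74 ± 0.18 (SE, adjusted p = 0.0168) at day 9 against day 0 and -0.33 ± 0.12 (0.0329) in the late tumours against days 6 and 9. Mx2, Cmpk2, the nucleotide kinase next to Rsad2, and Bst2, tetherin, which holds budding virus to the cell, completed the 7 genes, of which 7 were called higher at day 3 and 6 at day 9.

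Of the system that conjugates the ubiquitin-like protein ISG15, Usp18, which removes it, had 6.69, 9.76, 6.88 and 6.09 at day 0, 8.58, 9.53 and 9.91 at day 9 and 5.92 to 7.66 in the late tumours (median 6.84). Herc6, the mouse ISG15 ligase, was called higher on days 2 to 9. Trim25 had 9.77, 10.26, 9.61 and 9.93 at day 0, 9.96, 10.32 and 10.59 at day 9 and 8.95 to 9.70 in the late tumours (median 9.32). It was called at none of days 1 to 9 and called lower in the late tumours against day 0. Against days 6 and 9 it was called lower like the rest of this group (-0.77 ± 0.14 SE, adjusted p = 0.000112). These values are of its brightest probe set, which gave -0.05 at day 3 and 0.40 at day 9 against day 0. Its other probe sets gave 0.31 and 0.33 at day 3, and 0.37 and -0.21 at day 9.

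The PARP and ubiquitin ligase group (Parp9, Parp12, Parp14, Dtx3l and Trim30a) was the most even, with 5 of 5 called higher on days 1, 3, 6 and 9 and 4 of 5 on day 2. Parp9 and Dtx3l act as a complex and lie next to each other on chromosome 16, with Parp14 on the other side of Dtx3l. Their differences at day 9 were 1.43 ± 0.28 for Parp9 (SE, adjusted p = 0.00376), 1.25 ± 0.28 for Dtx3l (0.00928) and 1.45 ± 0.28 for Parp14 (0.00363). Trim30a had 7.30, 8.64, 6.43 and 6.91 at day 0, 9.34, 8.81, 8.82 and 9.17 at day 6 and 7.24 to 8.25 in the late tumours (median 7.89), and its tumours of day 6 did not overlap those of day 0.

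Of the other interferon-induced genes, Rtp4 had 8.59, 11.21, 8.96 and 9.07 at day 0, 11.58, 10.46, 11.16 and 11.51 at day 6 and 7.87 to 9.80 in the late tumours (median 8.96). Lgals3bp had 9.05, 10.72, 8.70 and 8.69 at day 0, 9.72 to 11.43 at day 1 (median 10.81) and 7.46 to 8.67 in the late tumours (median 8.02). All late tumours lay below all tumours of days 0 to 9 for Lgals3bp, though narrowly, with 8.67 in the highest late tumour and 8.69 in the lowest of day 0. For days 0 to 9 together no share over all genes was computed. Nmi had 7.45, 9.25, 8.24 and 8.52 at day 0, 8.90, 9.53 and 9.84 at day 9 and 8.43 to 9.56 in the late tumours (median 9.24), so its late level stayed near that of days 1 to 9. Ifi35, Xaf1, Sp100 and Tor3a were called lower in the late tumours against days 6 and 9 together with Rtp4 and Lgals3bp.

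**Figure D3:**
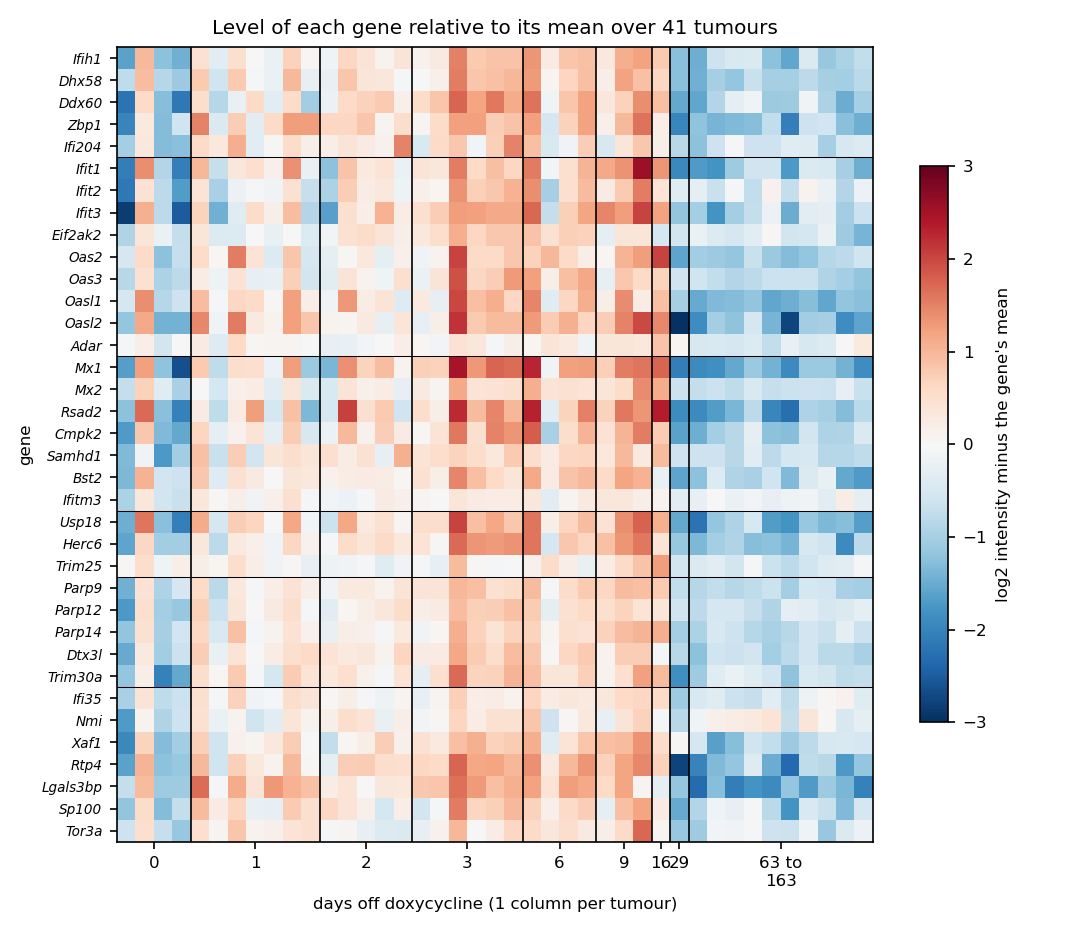
Log2 intensity of each antiviral gene minus its mean over the 41 tumours (colour), with 1 row per gene, grouped by role, and 1 column per tumour, ordered by days off doxycycline. Columns of days 1 to 9 are mostly red and those of the late tumours mostly blue, the second of the 4 columns of day 0 is red in most rows, and Adar, Trim25 and Ifitm3 vary least.

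The genes also varied together among tumours of the same day. After each group's mean was taken off, the 630 pairs of antiviral genes had a mean Pearson r of 0.61 and a median of 0.64 over 39 tumours, between -0.27 and 0.92, and 99.7% of the pairs were above 0. The mean over pairs of all genes tested was 0.02. This is a description, since values of one array share its hybridisation and its mix of cells. Ifih1 (mean r with the other genes 0.74) and Dhx58 (0.73) followed the rest most closely, and Adar (0.24) and Trim25 (0.36) least. The members that are direct neighbours in the RefSeq gene order were Rsad2 with Cmpk2, Ifit2 with Ifit3, Oasl2 with Oasl1, Oas2 with Oas3, Parp14 with Dtx3l, and Dtx3l with Parp9.

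In the late tumours against days 6 and 9 all other probe sets of these genes but 1 moved in the direction of the one used. The odd one belongs to Xaf1, a partner of the apoptosis inhibitor XIAP: its brighter probe set gave -1.59 in the late tumours against days 6 and 9 and its other probe set 2.26. The second Eif2ak2 probe set gave -0.07 at day 3 against day 0, where the brightest gave 1.06 and the remaining one 1.02. The direction of Xaf1 thus depends on the probe set.

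The receptors, kinases and factors of the pathway were described from lists chosen with earlier results of these data known. Of the 7 factors measured of the ISGF3 and interferon regulatory factor list (Stat2, Irf9, Irf1, Irf3, Irf5, Irf7 and Irf8), 7, 4, 5, 4 and 4 were called higher at days 1, 2, 3, 6 and 9. In the late tumours 1 was called lower against day 0, and 6 against days 6 and 9. Irf7 had 7.44, 10.14, 7.38 and 6.80 at day 0, 10.36, 9.38, 10.04 and 9.97 at day 6, 9.31, 10.30 and 10.25 at day 9 and 6.19 to 7.44 in the late tumours (median 6.58). Its difference from day 0 was 1.52 ± 0.44 at day 1 (SE, adjusted p = 0.0184), 0.91 ± 0.47 at day 2 (0.19), 1.88 ± 0.45 at day 3 (0.00347), 2.00 ± 0.49 at day 6 (0.00728) and 2.02 ± 0.53 at day 9 (0.0237). In the late tumours it was lower than at day 0 (-1.31 ± 0.41, 0.0099), days 6 and 9 (-3.31 ± 0.35, 5.45e-08) and day 1 (-2.82 ± 0.34, 1.07e-07). The day 0 mean of Irf7 includes replicate 2 at 10.14, while the other tumours of day 0 had 7.44, 7.38 and 6.80. For Irf7, days 3 and 6 differed from day 2 by 1.03 ± 0.39 (0.821). Fits with a tumour left out or with spike-in set as a block are not given for genes of the pathway lists, here or below. Stat2 rose by 1.36 ± 0.24 (0.000164) and Irf9 by 0.90 ± 0.16 (0.000238) at day 3, and in the late tumours against days 6 and 9 they stood at -1.20 ± 0.18 (1.3e-05) for Stat2 and -0.75 ± 0.12 (4.72e-05) for Irf9.

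Of the 7 receptor and kinase genes, 2, 1, 3, 1 and 0 were called higher at days 1, 2, 3, 6 and 9. Ifnar1 was not called at any of these days, and Ifnar2 rose by 0.53 ± 0.14 (SE, adjusted p = 0.0108) at day 1 and 0.46 ± 0.14 (0.0207) at day 3. Ifngr1, of the interferon gamma receptor, rose by 1.26 ± 0.16 (2.69e-06) at day 3 and by 0.90 ± 0.14 (6.35e-06) in the late tumours against day 0, whereas Ifngr2 fell by 1.60 ± 0.24 (3.85e-06) against day 0. Of 11 nucleic acid sensors and adaptors tested, 2, 1, 3, 2 and 3 were called higher at days 1, 2, 3, 6 and 9, and 1, Ticam1, was called lower at days 2 and 3. Tlr7, an RNA receptor of endosomes, rose by 2.31 ± 0.27 (1.12e-06) at day 3, and Ddx58, which encodes RIG-I, by 0.86 ± 0.22 (0.00649). Of 6 negative regulators, a list that also holds Usp18, Socs1 fell by 1.20 ± 0.26 (0.000274) in the late tumours against day 0.

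Few genes of the type I interferons themselves could be followed. Of 15 listed ligand genes 9 had a probe set of their own and only Ifna1, Ifna9 and Ifnz passed the filter, with 0 of 3 called higher in any comparison. Ifnz was called lower in the late tumours against day 0 (-0.53 ± 0.19 SE, adjusted p = 0.024), against days 6 and 9 (-0.53 ± 0.16, 0.012) and against day 1 (-0.41 ± 0.16, 0.0324). Ifnb1 had a day 0 mean of 5.24 ± 0.11 (SD, n = 4), a day 3 mean of 5.27 ± 0.02 (n = 6), a day 9 mean of 5.14 ± 0.10 (n = 3) and a late mean of 5.22 ± 0.17 (n = 10), and lay below the filter level in all 41 arrays.

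Interferon gamma and its marker targets moved beside the antiviral genes. Of the 8 genes tested of that list, 6, 6, 7, 5 and 6 were called higher at days 1, 2, 3, 6 and 9, 0 in the late tumours against day 0, and 8 of 8 lower in the late tumours against days 6 and 9 and against day 1. Ifng rose by 1.29 ± 0.41 (SE, adjusted p = 0.0315) at day 1, 1.31 ± 0.44 (0.0393) at day 2 and 1.19 ± 0.42 (0.0423) at day 3, and Cxcl9, a chemokine that draws T cells, by 3.16 ± 0.84 (0.0112), 3.06 ± 0.90 (0.0198) and 3.11 ± 0.87 (0.0105). The mean level of the list was 7.14, 9.40, 7.65 and 9.04 in the tumours of day 0. Replicate 4 of day 0 thus stood with replicate 2 for this list, while its antiviral mean of 7.76 stood with replicates 1 and 3. In replicate 4 Cxcl9 was 9.52, Gbp2 11.41 and Iigp1 11.79, against Mx1 at 5.23 and Ifit3 at 8.20.

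**Figure D4:**
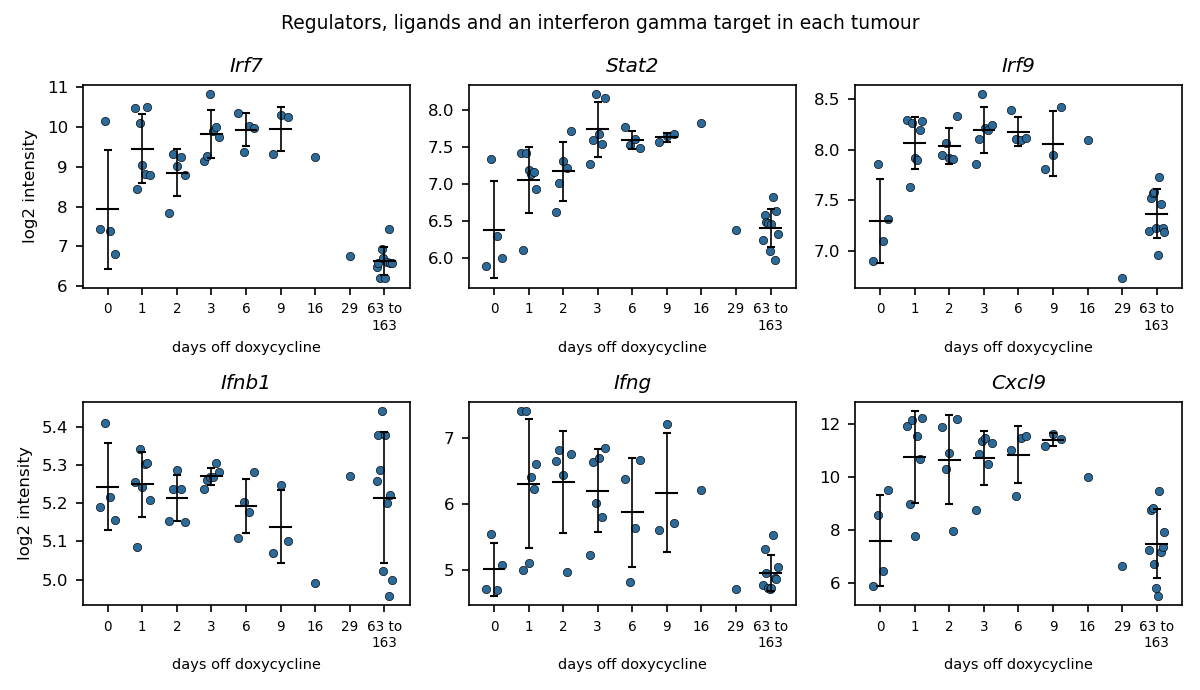
Log2 intensity (vertical axes, which differ between panels) of Irf7, Stat2, Irf9, Ifnb1, Ifng and Cxcl9 in each tumour by days off doxycycline (horizontal axis), with 1 point per tumour and bars for the group mean ± SD. Ifnb1 spans less than 1 log2 unit in all groups, whereas Irf7 averages 7.94 at day 0, 9.95 at day 9 and 6.63 in the late tumours.

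**Figure D5:**
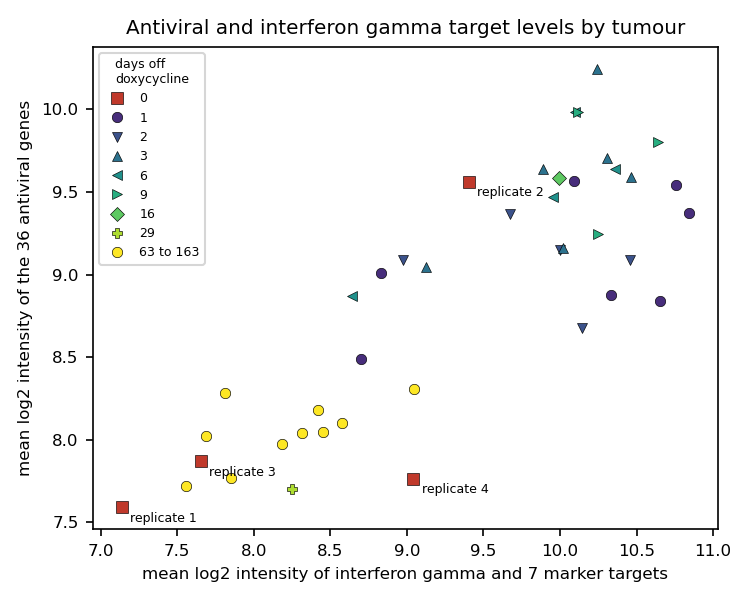
Mean log2 intensity of the 36 antiviral genes (vertical axis) against that of interferon gamma and 7 of its marker targets (horizontal axis), 1 symbol per tumour, coloured and shaped by days off doxycycline, with the 4 tumours of day 0 labelled. Replicate 4 of day 0 has 9.04 on the horizontal axis and 7.76 on the vertical one, below replicate 2 with 9.40 and 9.56.

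Markers of macrophages and of T and NK cells, like the antiviral genes, averaged higher at days 1 to 9 than at day 0. All were low in the late tumours. The antiviral mean was 9.68 at day 9 (n = 3) and 9.49 at day 6 (n = 4). The macrophage mean was 10.28 at day 9 and 11.00 at day 6, and the T and NK cell mean 7.18 and 7.41. Days 6 and 9 lie in different spike-in sets, their ranges overlap for each of these means, and their differences were not tested. The part of these cells in the results was not tested. Of 11 macrophage markers 7, 7, 7, 7 and 1 were called higher at days 1, 2, 3, 6 and 9, and 7 were called lower in the late tumours against days 6 and 9. Their mean level ran between 8.79 and 10.28 at day 0, 10.47 and 11.00 at day 1, 10.76 and 11.24 at day 3, 9.98 and 10.87 at day 9 and 8.88 and 10.01 in the late tumours. Of 14 T and NK cell markers 11, 5, 9, 3 and 1 were called higher at days 1, 2, 3, 6 and 9, and 9 lower and 1 higher in the late tumours against days 6 and 9. Their mean ran between 5.73 and 6.91 at day 0, 6.97 and 8.50 at day 1, 7.30 and 8.18 at day 3, 6.46 and 7.93 at day 9 and 5.91 and 7.22 in the late tumours. Within day 0, replicate 2 had the highest mean of both lists, 10.28 and 6.91.

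Plasmacytoid dendritic cells are known for making type I interferon. Of their 7 markers, which include Bst2, itself an antiviral gene, 1, 0, 1, 1 and 1 were called higher at days 1, 2, 3, 6 and 9, the called one being Ccr9 at day 1 and Bst2 at days 3, 6 and 9. Their mean ran between 7.55 and 8.13 at day 0, 7.98 and 8.50 at day 1, 7.96 and 8.45 at day 3 and 7.60 and 8.75 in the late tumours. In the late tumours 3 of these 7 markers were called lower against day 1, 0 against day 0 and 1 against days 6 and 9. Of 7 neutrophil markers 1, 2, 1, 2 and 0 were called higher at days 1, 2, 3, 6 and 9, and of 5 B and plasma cell markers 1, 1, 1, 1 and 0. Of 7 endothelial markers 0 were called higher at days 1 to 9, and of 7 keratinocyte markers 1, Krt10 at day 3 (4.14 ± 1.31, adjusted p = 0.0228). Keratinocyte means ranged widely within groups, between 6.12 and 9.32 at day 0 and between 6.26 and 11.72 in the late tumours. Among groups of 3 or more tumours the average of these means was lowest at day 0 (7.74). Over days 1 to 9 it ran between 9.02 (day 1) and 10.45 (day 6). Levels of these skin markers thus varied although the skin was trimmed off, and the part of skin in the results was not tested.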

How the data were processed

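Each of 41 mouse melanomas was hybridised to 1 Affymetrix mouse array. The authors deposited intensity values that are linear, judging by their range. Both MAS5 and RMA are named in the submitters' processing notes, with no version or role. The genome build is not given in the sources used here.

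The deposited intensity was turned into log2(value + 16), so differences of dim genes are understated, and quantile normalised. Of 45101 probe sets, 34958 named 1 gene, and the one of highest mean per gene was kept (18194 genes). Genes above the 40th percentile of an array in at least 3 arrays were tested (14319). One limma fit (limma 3.58.1, R 4.3.3) of group means over all 41 tumours, with 32 residual and 2.58 prior degrees of freedom, gave 9 comparisons, each with Benjamini-Hochberg adjustment over all genes tested. All adjusted p-values are limma's. The script was checked on simulated data. Arrays have no sequencing depth.

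Spike-in set 1 is bioD below a log2 value of 12, and dap splits the rest, at most 9.30 in set 2 and at least 9.62 in set 3. Alternatives were array scaling, pseudocount, filter, probe set choice, robust limma, array weights, the compared groups alone, spike-in set, Gapdh gap and each tumour left out. Members, lists, groups and alternatives were chosen with earlier results of these data known. Genes named were, per comparison, the 4 largest called rises and falls, any called against the majority, and Isg15, Ifit1, Mx1, Rsad2, Oas2, Irf7, Ifih1 and Eif2ak2, as far as measured and reported here, and called genes, ligands and receptors of the pathway lists. Others, named to complete a role, were chosen after their values were seen. Figures were drawn with matplotlib 3.10.9.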

Additional observations from a re-analysis of the deposited data

Results flagged for a closer look

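In groups of 4 to 10 tumours, 7 values stood apart from the rest of their group by Dixon's criterion, in 108 groups tested. Chance alone marks about 1 group in 20. The tests covered the mean over the 36 antiviral genes and those of them named in the comparisons. These vary together, so the flags are not independent of each other. The mean over the 36 antiviral genes was 9.56 in day 0 replicate 2, against 7.59 to 7.87 in the other three tumours of day 0. In the same tumour Oasl1 was 8.99 (others 6.74 to 7.05), Oasl2 was 9.90 (7.33 to 7.60) and Ifih1 was 10.33 (7.76 to 8.14). That tumour also had the highest day 0 means for macrophage markers, 10.28, for T and NK cell markers, 6.91, and for interferon gamma and its targets, 9.40. Its Gapdh gap was 0.47. Rtp4 was low in day 2 replicate 1, at 9.92, against 10.69 to 10.97 in the other tumours of that day. Lgals3bp was low in day 6 replicate 2, at 10.17, against 10.91 to 11.02. Trim25 was high in day 3 replicate 3, at 10.69, against 9.50 to 9.77.

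The single tumour of day 16, which entered no comparison, had a mean over the antiviral genes of 9.59, just above the 7.59 to 9.56 of day 0. This difference was not tested.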

How the results depend on the processing

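The numbers of antiviral genes called depended on the tumours of day 0 and on the spike-in sets, and the cause was not tested. Counts over all genes in the other fits are not given, so a change particular to these genes cannot be told apart from a general one. The mean of all probe sets gave 7 called in the late tumours against day 0, where 4 is the value given above. Array weights gave 9 at day 9 and 7 in the late tumours against day 0. With only the compared groups in the fit there were 5, 3, 4 and 0 called at days 1, 2, 6 and 9. With spike-in set as a block there were 5, 0, 1 and 0 at days 1, 2, 3 and 6, and Eif2ak2 turned to -0.019 at day 3 and -0.033 at day 6. The block values of days 2, 3 and 6 rest on the 1 tumour of day 1 in set 1. Within spike-in set 3 there were 0 both at day 9 and in the late tumours against day 0, in fewer samples. The Gapdh gap as a covariate gave 2 in the late tumours against day 0. Without tumours of a gap over 2 there were 0 at day 9, 2 in the late tumours against day 0 and 13 in the late tumours against day 1.

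Leaving out each tumour in turn gave 4 (without day 0 replicate 1) to 31 (without day 0 replicate 2) at day 1 and the same range at day 2. It gave 22 to 34 at day 3, 13 (without day 0 replicate 1 or day 6 replicate 1) to 34 at day 6, 1 (without day 9 replicate 3) to 32 (without day 0 replicate 2) at day 9 and 4 to 11 (without day 0 replicate 2) in the late tumours against day 0. Against days 6 and 9 there were 34 to 35 called and against day 1 there were 30 to 33, and days 3 and 6 against day 2 gave 0 in all 15 fits. For single named genes the other settings left 555 values on the same side of the threshold, took 85 below it and reversed 2, and leaving out tumours left 567 and took 59 below it. Of the measured ligand genes most lay below the filter level on every array. No paired analysis was possible because the labels give the tumours no numbers that match between days.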

Other observations

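The promoter match and the measured change can be set side by side for the 25 antiviral genes with both. At day 9 against day 0 the median difference was 1.72 in the 10 genes with a match (0.51 to 2.85) and 1.26 in the 15 without (0.40 to 2.11). In the late tumours against days 6 and 9 the medians were -1.72 with a match (-2.51 to -0.33) and -1.25 without (-2.59 to -0.22). The ranges overlap nearly whole, and no test was made.

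The tumours of days 16 and 29 entered no comparison. The tumour of day 16 had Mx1 at 9.62, Rsad2 at 11.72 and Trim25 at 10.99, and that of day 29 had Mx1 at 5.78, Rsad2 at 7.48 and Trim25 at 9.18. Irf7 was 9.25 at day 16 and 6.75 at day 29.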
